A study of Mus musculus with 6 samples.

Results

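The genes described here encode the secreted Wnt ligands, their Frizzled (Fzd) receptors, the secreted Sfrp and Dkk antagonists, the R-spondins (Rspo) with their receptor Lgr5, and the response genes Axin2 and Lef1. They were taken by symbol: every Wnt, Fzd, Sfrp or Dkk gene with a number, plus Axin2, Lef1, Lgr5 and Rspo1 to Rspo4. The set was chosen with earlier results of these data known. This gave 44 of the 56884 genes counted, and 34 of them were expressed highly enough to be tested. The question was how their RNA levels differed between endometriosis-like ectopic lesions grown from donors with and without a conditional deletion of Dnmt3a, a DNA methyltransferase that sets new DNA methylation. RNA was sequenced from 3 control (WT) and 3 Dnmt3a KO lesions, each lesion as 1 library. The uterine tissue of WT lesions came from Dnmt3a f/f mice, and that of KO lesions from Dnmt3a f/f:PR-Cre/+ mice, so both groups carried the floxed alleles and only the KO group carried Cre. The Cre is driven from the progesterone receptor locus and acts in cells that express that receptor, and the hosts were wild type, so host cells in a lesion keep Dnmt3a in both groups. Donor mice and the C57BL/6J hosts were 8 weeks old and given estradiol, the donors by injection on 3 days and the hosts from a pellet with 0.36 mg. The study's methods describe 2 mm endometrial fragments sutured to the mesentery and collected on day 21, whereas the sample labels describe tissue pieces injected into the peritoneal cavity and a time of 4 weeks. Which of these applies to the sequenced lesions could not be settled from the sources used here.

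Wnt proteins are lipid-modified signals that act over short distances. A ligand that engages a Frizzled receptor together with the co-receptor Lrp5 or Lrp6 stabilizes beta-catenin, which then drives target genes such as Axin2 with Tcf and Lef factors, whereas ligands such as Wnt5a are better known for signalling without beta-catenin through Ror and Ryk receptors. Sfrp proteins bind Wnt ligands outside the cell, Dkk1 and Dkk2 act on Lrp5 and Lrp6, and R-spondins keep Frizzled receptors at the surface through Lgr receptors. In the mouse uterus, Wnt4, Wnt5a and Wnt7a are known for roles in the development of the tract, the glands and the decidua.

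The libraries held 45370342 to 57239184 counts. Levels are given as CPM, the counts scaled to a common library size, with TMM scaling, and changes as KO minus WT on the log2 scale from edgeR's quasi-likelihood test. Dnmt3a itself (ENSMUSG00000020661.16), measured over the whole gene, lay at 52.7, 43.9 and 51.7 CPM in the WT lesions and at 30.3, 33.5 and 36.2 CPM in the KO lesions, each in the order of replicates 1, 2 and 3, as throughout. Every KO lesion lay below every WT lesion, and the change was -0.57 with a standard error of 0.14 (unadjusted p = 0.00584, Benjamini-Hochberg adjusted p = 0.321). Markers of endometrial epithelium were abundant in all 6 libraries, with the exception of the gland marker Foxa2 (0 to 2.62 CPM), and intestinal epithelium markers summed to 3.80 CPM or less. WT replicates 1 and 3 held RNA of skeletal muscle (8 markers summing to 27065 and 28553 CPM, against 3.47 to 14.1 CPM in the other libraries). WT replicate 2 held the most neutrophil RNA (9062 CPM over 6 markers, against 26.1 to 438 CPM elsewhere). KO replicate 3 was the KO library most like the WT libraries (Pearson's r of log2 CPM across genes between 0.939 and 0.941). In whole lesions, fewer cells of a type and less RNA per cell cannot be told apart.

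The differences that kept an unadjusted p under 0.05 with any single lesion left out were those of Wnt5a, Wnt5b and Sfrp1. In KO lesions RNA of the ligands Wnt5a (2.68-fold) and Wnt5b (2.38-fold) was higher, and that of the antagonist Sfrp1 was 7.36-fold lower. Ligand and receptor genes went both ways. Wnt16, Fzd5 and Fzd6 (2.47-fold) were also higher, whereas Wnt2, Fzd1, Fzd7, Lef1 and the antagonist Sfrp4 (3.13-fold lower) were lower. Here a gene is called higher or lower when its unadjusted p was under 0.05. By this rule 11 of the 34 tested members (32.4%) differed, beside 14.7% of all 18177 tested genes. Of these members 6 were lower, where the share of all tested genes was 8.16%, and 5 were higher, where it was 6.55%. After Benjamini-Hochberg adjustment over all tested genes no member passed 0.05 in edgeR (adjusted p from 0.321 to 0.986), and 0.0055% of all tested genes, a single gene, did. DESeq2 gave an adjusted p under 0.05 to 4 of the 36 members to which it gave a value (11.1%, beside 5.47% of all genes), and these were Sfrp1, Fzd9, Wnt5a and Wnt5b. Limma voom gave none to a member, beside 0.066% of all genes. In 10 of the 34 tested members the groups did not overlap, which is 29.4% beside 19.4% of all tested genes. Every KO lesion lay above the WT lesions in 5 of them (10.7% of all tested genes) and below in 5 (8.74%). The median change of the members was -0.16, with 19 negative and 15 positive values, and that of all tested genes was 0.01. With each lesion left out, the number of members called ran from 4 without KO replicate 1 (7.26% of all tested genes called) to 15 without KO replicate 3 (23.9%), and it was 7 without WT replicate 3 (11.4%). Without KO replicate 1 these were 2 lower and 2 higher members, without KO replicate 3 they were 10 and 5, without WT replicate 3 they were 3 and 4, and without KO replicate 2 they were 7 and 3. Leaving out WT replicate 1 turned the members' median to 0.15. With upper quartile scaling, which moved the median of all genes to 0.11, 4 members were lower and 6 higher.

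**Figure D1:**
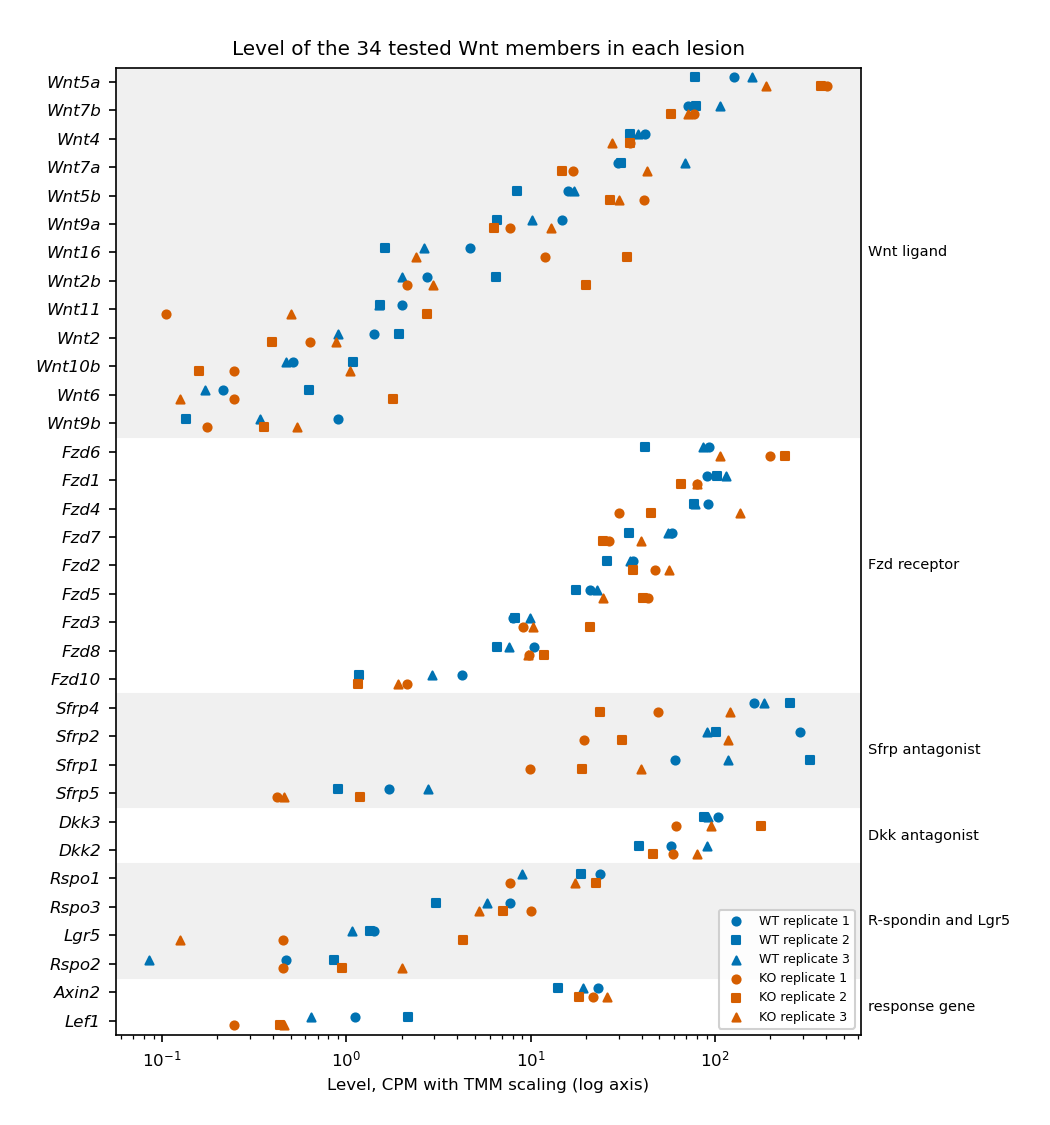
Level of each tested member in each of the 6 lesions, in CPM with TMM scaling on a log axis, with WT lesions in blue, KO lesions in orange and the marker shape giving the replicate number. Wnt5a, Wnt5b, Fzd5, Fzd6 and Fzd2 lie higher in all 3 KO lesions, and Sfrp1, Sfrp4, Fzd1, Wnt2 and Lef1 lie lower, while the other members overlap.

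Because the deleted enzyme methylates CpG dinucleotides, the start regions of the members were read for CpG content (RefSeq, GRCm38.p6, from 250 bases before to 50 bases after each start). Windows were found for 29 of the 44 members, 35 windows in all, and those of Dkk3, Dkk4, Fzd2, Fzd3, Fzd6, Fzd8, Lgr5, Rspo2, Rspo3, Sfrp1, Sfrp4, Wnt10a, Wnt5a, Wnt7b and Wnt8a were not found. The member windows held a median of 26 CpG dinucleotides (4 to 58), and all 32851 windows a median of 7. The letters CTTTGAT or CTTTGAA, to which Tcf and Lef factors are known to bind, were present on either strand in 3 of the 35 member windows (8.57%), beside 8.65% of all windows. Methylation was not measured in these libraries. The bases upstream of the start are printed 5′ to 3′ for the 5 members that were higher or lower and had exactly 1 window, with each CpG in capitals, to show how widely CpG content varied among members that changed in either direction. Fzd5 (chr1:64737752-64738000, minus strand, 31 CpG in 249 bases) and Wnt16 (chr6:22287977-22288226, plus strand, 9 in 250) were higher in KO lesions. Fzd7 (chr1:59481897-59482146, plus strand, 17 in 250), Fzd1 (chr5:4758217-4758466, minus strand, 12 in 250) and Wnt2 (chr6:18030586-18030695, minus strand, 8 in 110) were lower. The Wnt2 bases are only the part farthest from the start, since they stop where an annotated transcript of the gene begins. Over the whole windows Wnt2 held 27 CpG, beside 38 for Fzd5, 24 for Fzd7, 16 for Fzd1 and 10 for Wnt16.
Fzd5: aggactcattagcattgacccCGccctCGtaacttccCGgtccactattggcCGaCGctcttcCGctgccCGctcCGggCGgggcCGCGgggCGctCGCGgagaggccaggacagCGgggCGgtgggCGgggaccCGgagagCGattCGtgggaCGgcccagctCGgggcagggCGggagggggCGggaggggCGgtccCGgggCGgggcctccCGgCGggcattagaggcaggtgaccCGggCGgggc
Wnt16: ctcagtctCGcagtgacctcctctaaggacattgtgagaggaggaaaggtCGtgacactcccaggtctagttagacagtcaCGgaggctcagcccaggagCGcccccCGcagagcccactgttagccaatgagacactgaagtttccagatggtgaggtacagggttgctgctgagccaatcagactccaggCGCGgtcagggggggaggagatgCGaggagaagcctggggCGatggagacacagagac
Fzd7: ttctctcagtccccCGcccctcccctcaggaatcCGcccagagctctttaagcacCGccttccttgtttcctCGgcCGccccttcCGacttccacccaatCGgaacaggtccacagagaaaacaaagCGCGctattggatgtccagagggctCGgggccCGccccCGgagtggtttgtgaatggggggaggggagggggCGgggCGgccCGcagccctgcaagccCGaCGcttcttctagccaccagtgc
Fzd1: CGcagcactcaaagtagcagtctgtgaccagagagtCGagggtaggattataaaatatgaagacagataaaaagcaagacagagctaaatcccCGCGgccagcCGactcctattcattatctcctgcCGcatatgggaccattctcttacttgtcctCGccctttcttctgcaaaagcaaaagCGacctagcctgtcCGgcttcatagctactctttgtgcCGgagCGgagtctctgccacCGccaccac
Wnt2: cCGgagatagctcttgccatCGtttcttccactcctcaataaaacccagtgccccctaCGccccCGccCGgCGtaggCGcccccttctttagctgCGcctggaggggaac

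Of the 19 Wnt ligand genes 13 were tested. Wnt5a, Wnt5b and Wnt16 were higher in KO lesions, Wnt2 was lower, and 9 did not pass the test, with a median change of -0.24 over the 13. Wnt5a, a ligand of stroma and mesenchyme in many organs, measured 127, 78.2 and 158 CPM in the WT and 406, 377 and 189 CPM in the KO lesions. KO replicates 1 and 2 stood well above all others, and KO replicate 3 was only just above the highest WT lesion. The change of Wnt5a was 1.42 with a standard error of 0.39 (unadjusted p = 0.0105), and it stayed past the threshold with each lesion left out (1.19 to 1.70). Wnt5b, its closest relative in the family, lay at 15.9, 8.42 and 17.1 CPM in the WT and 41.4, 26.9 and 30.2 CPM in the KO lesions. Here the 3 KO lesions were alike and all lay clearly above the WT lesions. The change of Wnt5b was 1.25 with a standard error of 0.32 (unadjusted p = 0.00802), and 0.99 to 1.41 with each lesion left out, past the threshold each time. Of 6 smooth muscle markers, Myh11, Cnn1 and Actg2 were likewise higher in KO lesions without overlap and none passed the test as lower. Des alone had a negative change (-2.16, unadjusted p = 0.0797), at 2675, 106 and 1357 CPM in the WT and 371, 195 and 362 CPM in the KO lesions. Myh11, the smooth muscle myosin heavy chain, measured 233, 177 and 241 CPM in the WT and 499, 373 and 396 CPM in the KO lesions, while the 6 summed to 1053 to 4843 CPM in WT and 2181 to 3816 CPM in KO lesions, and the part of smooth muscle in the Wnt5b values was not tested. The adjusted p of Wnt5a was 0.0252 in DESeq2 and ran from 0.0171 (edgeR with WT replicate 2 and KO replicate 3 both left out) to 0.668 over all alternatives. That of Wnt5b was 0.0258 in DESeq2, its lowest value, and reached 0.668.

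Wnt16, a ligand known from bone and skin, measured 4.70, 1.62 and 2.65 CPM in the WT and 12.0, 33.3 and 2.38 CPM in the KO lesions. KO replicates 1 and 2 were high, and KO replicate 3 lay among the WT lesions, so the groups overlapped. The change was 2.41 with a standard error of 0.95 (unadjusted p = 0.0441). Only when KO replicate 3 was left out did Wnt16 stay past the threshold (2.92). Without KO replicate 2 the change was 1.27 (unadjusted p = 0.171), without KO replicate 1 it was 2.56 (0.0688), and without WT replicates 1, 2 or 3 it was 2.89 (0.0559), 2.11 (0.113) or 2.30 (0.116). Wnt2, a ligand that acts through beta-catenin in several organs, lay at 1.41, 1.94 and 0.897 CPM in the WT and 0.632, 0.397 and 0.875 CPM in the KO lesions. The groups touched without overlapping, since WT replicate 3 and KO replicate 3 were nearly equal. The change of Wnt2 was -1.15 with a standard error of 0.45 (unadjusted p = 0.0424). It missed the threshold without WT replicate 1 (-1.15, unadjusted p = 0.0903), WT replicate 2 (-0.86, 0.131), KO replicate 1 (-1.15, 0.109) or KO replicate 2 (-0.90, 0.112).

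The ligands long studied in the uterus, apart from Wnt5a, did not pass the test. Wnt4, which acts in stroma and decidua, measured 41.5, 34.5 and 38.4 CPM in the WT and 34.5, 34.6 and 27.7 CPM in the KO lesions. The groups met at about the same level, with only KO replicate 3 clearly lower (change -0.24, standard error 0.15, unadjusted p = 0.159). Wnt7a, a ligand of the luminal epithelium, measured 29.9, 31.1 and 69.0 CPM in the WT and 16.9, 14.8 and 42.6 CPM in the KO lesions. In each group replicate 3 was the highest, and KO replicate 3 lay above WT replicates 1 and 2. The change of Wnt7a was -0.81 with a standard error of 0.54 (unadjusted p = 0.183), and without KO replicate 3 it was -1.45 and past the threshold (unadjusted p = 0.0250), whereas without WT replicate 3 it was -0.31 (0.578). Wnt7a was also past the threshold with limma voom (-1.38, unadjusted p = 0.0211) and with edgeR and a replicate block (-0.86, 0.00682), so in 3 of the 13 alternatives fixed with the design. Wnt7b, its epithelial relative, measured 71.8, 79.3 and 107 CPM in the WT and 77.3, 58.1 and 71.1 CPM in the KO lesions. The groups overlapped, with WT replicate 3 high and KO replicate 2 low (change -0.32, standard error 0.20, unadjusted p = 0.154). The other tested ligands, Wnt2b, Wnt6, Wnt9a, Wnt9b, Wnt10b and Wnt11, had changes between -0.59 and 1.16, with unadjusted p from 0.275 to 0.656. Wnt2b and Wnt6 were each led by KO replicate 2, at 20.0 and 1.79 CPM, and Wnt11 ranged from 0.105 to 2.74 CPM within the KO lesions. Without KO replicate 2 the changes of Wnt2b and Wnt6, 1.16 and 1.09, turned to -0.55 and -0.84, and without WT replicate 1 those of Wnt9a and Wnt9b, -0.23 and -0.36, turned to 0.11 and 0.57. Wnt11 passed the threshold without KO replicate 2 (-2.47, unadjusted p = 0.0206) and Wnt10b without KO replicate 3 (-1.75, 0.0336).

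Ligands at or near 0 were not tested. Wnt1, Wnt8a and Wnt8b had 0 counts in all 6 libraries, which allows levels of up to 0.0526 to 0.0675 CPM in a library (3 counts). Wnt3 had 4 counts and Wnt3a 2 counts, all in WT lesions. Wnt10a had 22 counts over the WT lesions, with some in each, and 0 over the KO lesions. These limits cover counting error only. Of counts from 1 to 10, 89.7% to 91.3% by library were even numbers, as when both mates of a pair are counted, so a low count may stand for fewer molecules than it shows. The limits above take each count as 1 molecule and would then be too low.

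Divided by exon length, the ligand levels can be set side by side, and the same 5 ligands led in both groups but in a different order. In WT lesions the mean levels were 17.6 CPM per kb for Wnt7b, 15.5 for Wnt5a, 13.7 for Wnt7a, 9.09 for Wnt4 and 5.20 for Wnt5b, and the ranges of neighbours in this order overlapped except those of Wnt4 and Wnt5b. In KO lesions they were 41.4 CPM per kb for Wnt5a, 14.0 for Wnt7b, 12.4 for Wnt5b, 7.81 for Wnt7a and 7.69 for Wnt4, and the ranges of neighbours overlapped except those of Wnt5a and Wnt7b. The summed level of the 19 ligand genes was 63.9, 53.3 and 84.6 CPM per kb in the WT and 103, 99.2 and 76.2 CPM per kb in the KO lesions, so the groups overlapped. Wnt5a made up 25.3%, 18.8% and 23.9% of it in WT and 50.4%, 48.6% and 31.7% in KO lesions, and the groups did not overlap. Wnt5b made up 9.35%, 5.96% and 7.63% in WT and 15.2%, 10.2% and 14.9% in KO lesions, again without overlap. The Wnt7b share ran the other way, at 22.9%, 30.4% and 25.8% in WT and 15.3%, 12.0% and 19.0% in KO lesions. These shares are parts of 1 sum and so are not independent of each other, and they were not tested.

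**Figure D2:**
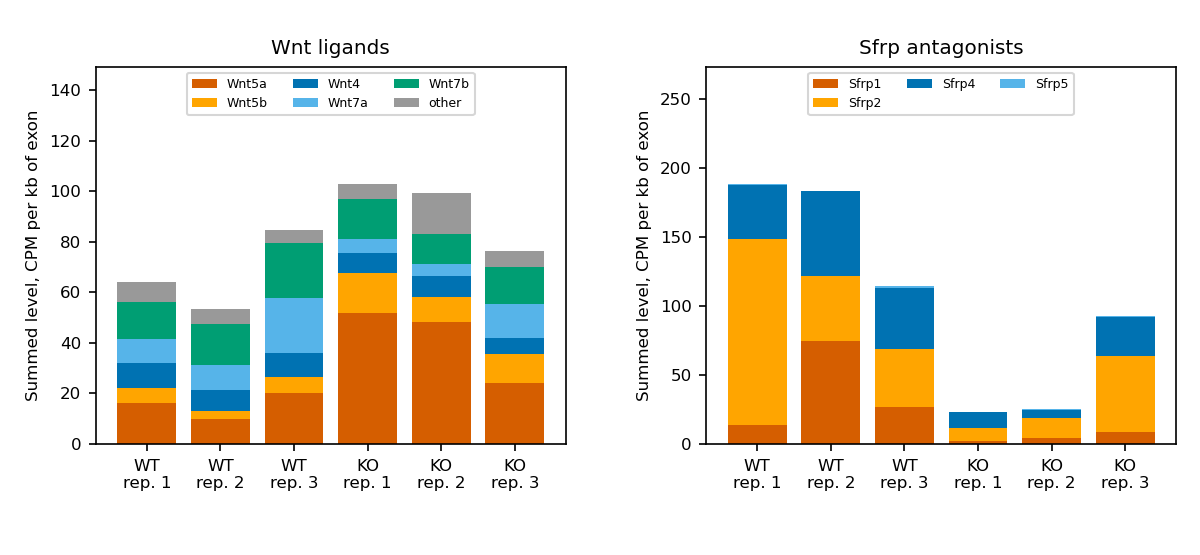
Summed level of the 19 Wnt ligand genes (left) and of the 4 Sfrp genes (right) in each lesion, in CPM per kb of exon, with each bar split by gene. The ligand bars of the WT and KO lesions overlap in height while the Wnt5a part is larger in the KO lesions, and the Sfrp bars are short in KO replicates 1 and 2 (23.3 and 25.2 CPM per kb) and taller in KO replicate 3 (92.5 CPM per kb).

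Of the 10 Frizzled receptor genes 9 were tested. Fzd5 and Fzd6 were higher in KO lesions, Fzd1 and Fzd7 were lower, and 5 did not pass the test, with a median change of 0.35 over the 9. Fzd6, a receptor known from epithelial planar polarity, measured 92.3, 41.7 and 86.6 CPM in the WT and 200, 239 and 107 CPM in the KO lesions. As with Wnt5a, KO replicates 1 and 2 were high and KO replicate 3 lay just above the WT lesions. The change was 1.31 with a standard error of 0.42 (unadjusted p = 0.0199). Without KO replicate 1 it was 1.23 (unadjusted p = 0.0540) and without KO replicate 2 it was 1.06 (0.0632). Fzd5, a receptor that couples to beta-catenin signalling, measured 20.9, 17.6 and 23.0 CPM in the WT and 43.5, 40.7 and 24.7 CPM in the KO lesions. The pattern was the same, with KO replicate 3 close to the WT lesions and no overlap. The change was 0.82 with a standard error of 0.25 (unadjusted p = 0.0165), 0.67 without KO replicate 1 (0.0519) and 0.74 without KO replicate 2 (0.0532). An antisense gene, Gm38058, covers 17.8% of the exon bases of Fzd5, and the strand setting of the counting is not given in the sources used here.

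Fzd1 measured 90.4, 103 and 114 CPM in the WT and 80.0, 65.2 and 79.5 CPM in the KO lesions. All KO lesions lay below all WT lesions, by a modest margin. The change was -0.45 with a standard error of 0.15 (unadjusted p = 0.0218), and -0.39 without WT replicate 3 (0.0643) or -0.36 without KO replicate 2 (0.0798). Fzd7, like Fzd1 a receptor of many mesenchymal and stem cells, measured 58.6, 34.1 and 55.8 CPM in the WT and 26.5, 24.6 and 39.8 CPM in the KO lesions. The groups overlapped, since WT replicate 2 lay below KO replicate 3. The change was -0.71 with a standard error of 0.29 (unadjusted p = 0.0485). It missed the threshold without WT replicate 1 (-0.57, unadjusted p = 0.140), WT replicate 3 (-0.63, 0.128), KO replicate 1 (-0.61, 0.141) or KO replicate 2 (-0.57, 0.141).

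Fzd2, a receptor for Wnt5a in mesenchyme, measured 35.8, 25.9 and 34.6 CPM in the WT and 47.3, 35.9 and 56.1 CPM in the KO lesions. No KO lesion lay below a WT lesion, but KO replicate 2 and WT replicate 1 were almost equal. Its change of 0.53, with a standard error of 0.22, just missed the threshold (unadjusted p = 0.0502) and passed it without KO replicate 2 (0.69, 0.0204). Fzd4, a receptor of endothelium among other cells, measured 92.0, 76.7 and 77.7 CPM in the WT and 30.3, 44.8 and 137 CPM in the KO lesions. The 3 KO lesions spanned the WT lesions on both sides, KO replicates 1 and 2 below and KO replicate 3 above. The change was -0.21 (unadjusted p = 0.714), and -1.13 without KO replicate 3 (0.00382). Its sign turned when KO replicate 1 was left out (0.16, unadjusted p = 0.762) or KO replicate 2 (0.03, 0.959). The summed level of 6 endothelial markers was also highest in KO replicate 3 and lowest in KO replicates 1 and 2, at 418, 490 and 418 CPM in the WT and 279, 199 and 535 CPM in the KO lesions, and its part in the Fzd4 values was not tested. Fzd3, Fzd8 and Fzd10 had changes of 0.62, 0.35 and -0.68 with unadjusted p of 0.127, 0.174 and 0.243, and Fzd10 passed the threshold without WT replicate 2 (-1.04, 0.0431).

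Fzd9, a receptor known from muscle, bone and brain, was not tested because only 2 libraries held more than 0.159 CPM, namely 4.78 and 4.23 CPM in WT replicates 1 and 3. The other 4 libraries lay between 0 and 0.159 CPM, WT replicate 2 among them. An exact two-sided permutation test gave p = 0.3, and the smallest p that 3 lesions against 3 allow is 0.1. The same 2 libraries held the skeletal muscle RNA, and none of the other 4 had more than 14.1 CPM of the 8 muscle markers. Of those markers 6 were tested, and all 6 were lower in KO lesions. The adjusted p of Fzd9 was 0.00850 in DESeq2 and between 0.0135 and 0.668 in the other alternatives that tested it, and the part of muscle RNA in it was not tested.

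Per exon length, Fzd6 and Fzd1 had the highest mean levels over all 6 lesions (26.5 and 21.1 CPM per kb), followed by Fzd4, Fzd2 and Fzd7 (11.4, 10.7 and 8.80 CPM per kb), whose ranges over lesions overlapped. Fzd4 lay above Fzd6 in WT replicate 2 (11.4 against 8.66 CPM per kb) and above Fzd1 in KO replicate 3 (20.4 against 18.9 CPM per kb). The order of the leading receptors changed between the groups. Fzd6 made up 22.3%, 13.6% and 20.8% of the summed receptor level in WT and 44.5%, 51.2% and 24.1% in KO lesions. Fzd1 made up 25.1%, 38.3% and 31.4% in WT and 20.5%, 16.0% and 20.5% in KO lesions. Fzd1 was thus the larger of the pair in every WT lesion and Fzd6 in every KO lesion, a description that was not tested.

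**Figure D3:**
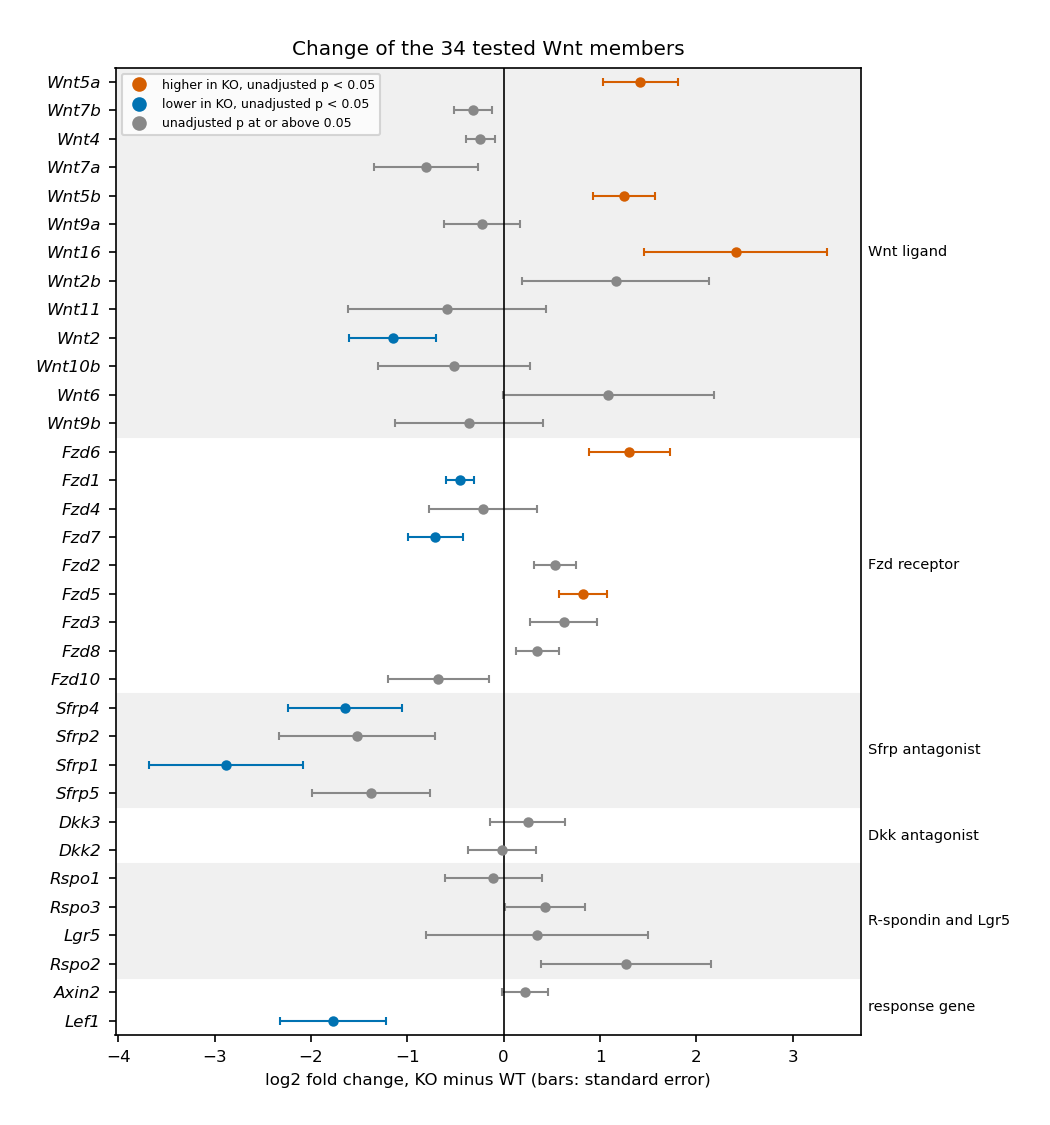
Change of each tested member between KO and WT lesions on the log2 scale (points) with its standard error (bars), grouped by role and ordered by level within each role. Orange marks the 5 members that were higher and blue the 6 that were lower at an unadjusted p under 0.05, and all 4 Sfrp genes lie left of 0.

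The Sfrp genes encode decoys that resemble the ligand-binding part of a Frizzled receptor. All 4 were tested and all 4 had negative changes, with a median of -1.58, and Sfrp1 and Sfrp4 were lower in KO lesions. The sign of each was the same under TMM, DESeq2 and upper quartile scaling. Sfrp1 measured 60.7, 326 and 117 CPM in the WT and 9.89, 19.0 and 39.6 CPM in the KO lesions. The WT lesions differed widely among themselves, WT replicate 2 being the highest, yet every KO lesion lay below the lowest of them. The change was -2.88 with a standard error of 0.80 (unadjusted p = 0.0113). It ranged from -3.54 without KO replicate 3 to -1.96 without WT replicate 2, past the threshold with each lesion left out, and the adjusted p was 0.00406 in DESeq2, its lowest value over all alternatives, and reached 0.668.

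Sfrp4, a decoy that is abundant in uterine stroma, measured 164, 257 and 184 CPM in the WT and 49.0, 23.8 and 120 CPM in the KO lesions. Again KO replicates 1 and 2 were far below the WT lesions and KO replicate 3 was between. The change was -1.65 with a standard error of 0.59 (unadjusted p = 0.0318), and -2.47 without KO replicate 3. It missed the threshold without WT replicate 2 (-1.43, unadjusted p = 0.0798), WT replicate 3 (-1.72, 0.0610) or KO replicate 1 (-1.47, 0.104). Sfrp2, a product of fibroblasts in many tissues, measured 290, 101 and 90.2 CPM in the WT and 19.6, 31.3 and 117 CPM in the KO lesions. KO replicate 3 lay above WT replicates 2 and 3, so the groups overlapped. The change was -1.52 with a standard error of 0.81 (unadjusted p = 0.109), and without KO replicate 3 it was -2.66 and past the threshold (0.0116), whereas without WT replicate 1, the highest lesion, it was -0.77 (0.371). Sfrp2 was also past the threshold with DESeq2 (-1.52, unadjusted p = 0.0474) and limma voom (-2.37, 0.00974), so in 3 of the 13 alternatives fixed with the design. An antisense gene covers 16.1% of the exon bases of Sfrp2. Sfrp5 was low, at 0.900 to 2.78 CPM in WT and 0.421 to 1.19 CPM in KO lesions, and had a change of -1.38 (unadjusted p = 0.0649). It passed the threshold without WT replicate 2 (-1.70, unadjusted p = 0.0339) or KO replicate 2 (-2.02, 0.0193).

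Summed per exon length, the 4 Sfrp genes reached 189, 184 and 114 CPM per kb in the WT and 23.3, 25.2 and 92.5 CPM per kb in the KO lesions. Set against the summed Wnt ligand level of the same lesion, this was 2.95, 3.45 and 1.35 times as much in WT and 0.226, 0.254 and 1.21 times as much in KO lesions. Decoy RNA exceeded ligand RNA in all WT lesions and in KO replicate 3, and fell short of it in KO replicates 1 and 2. The most abundant Sfrp gene was not the same throughout, being Sfrp2 in WT replicate 1, Sfrp1 in WT replicate 2 and Sfrp4 in WT replicate 3.

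The lesions also differed in the markers of the cells that express such genes. The 10 stromal markers summed to 4299, 3818 and 3988 CPM in the WT and 2610, 1957 and 5161 CPM in the KO lesions, so that KO replicates 1 and 2 were lowest here too and KO replicate 3 was highest. The list did not move as one. Its members Esr1, Hoxa11, Hoxd10 and Hand2, which are transcription factors, were higher in KO lesions, none was lower, and Col1a1, Vim and Pdgfra, which did not pass the test, were below every WT lesion in KO replicates 1 and 2. The 10 epithelial markers summed to 26556, 17078 and 25513 CPM in the WT and 49677, 37397 and 23674 CPM in the KO lesions, none of the 10 passing the test. Wnt5a, Fzd6 and the epithelial sum were all highest in KO replicates 1 and 2. Most of that sum was RNA of the secretory genes Ltf and Lcn2, at 33570 and 12590 CPM in KO replicate 1. All epithelial markers but Krt19 and Foxa2 were likewise highest in those lesions, Krt19 lying at 287, 480 and 566 CPM in the WT and 545, 510 and 263 CPM in the KO lesions. In KO replicate 3 the epithelial sum was below that of WT replicates 1 and 3, whereas Wnt5a, Fzd6 and Wnt5b were above every WT lesion. The part of epithelial or stromal share in the Wnt5a, Fzd6 and Sfrp values was not tested.

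**Figure D4:**
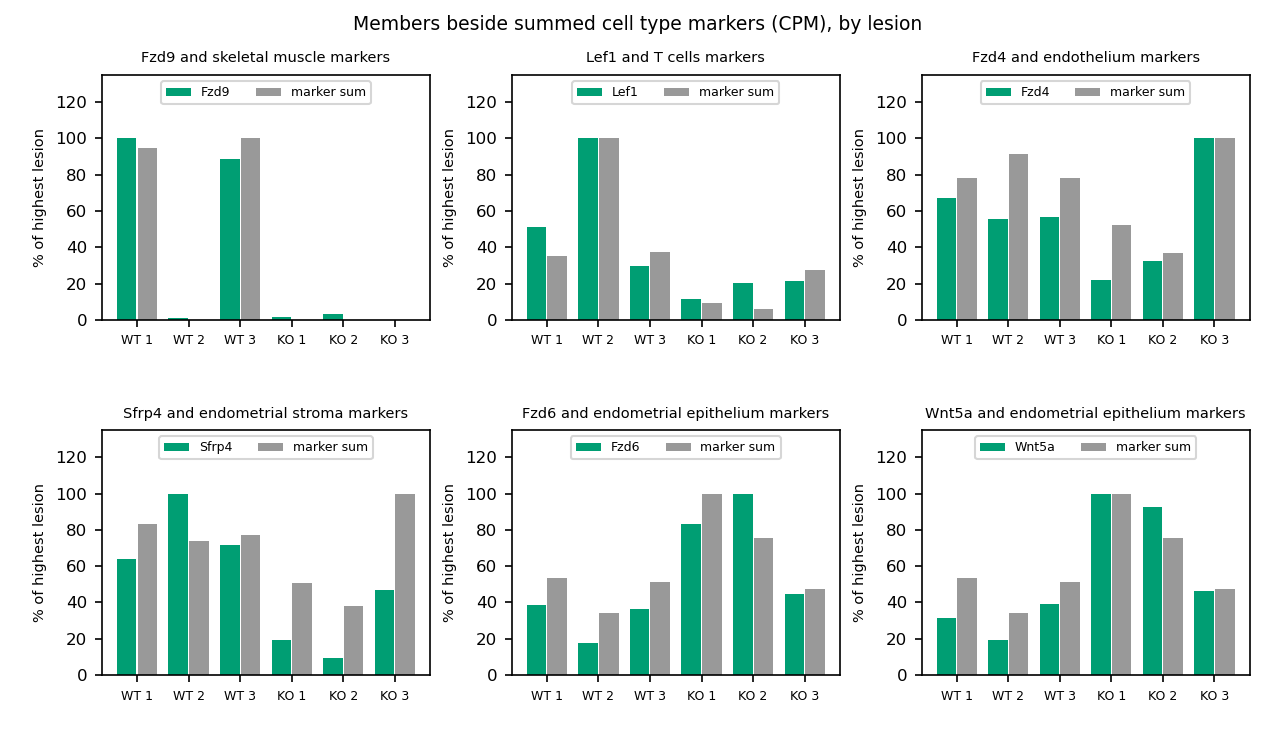
Level of 6 members (green) beside the summed level of a cell type marker list (grey) in each lesion, each as a percentage of its highest lesion. Fzd9 and the muscle markers are high in WT replicates 1 and 3 only, Lef1 and the T cell markers are highest in WT replicate 2, Fzd4 and the endothelial markers are highest in KO replicate 3, and Wnt5a and Fzd6 are highest in KO replicates 1 and 2 with the epithelial markers. Sfrp4 and the stromal markers differ, Sfrp4 being highest in WT replicate 2 and at 46.9% in KO replicate 3, where the stromal sum is highest. Most of the epithelial sum is Ltf and Lcn2.

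Neither of the 2 tested Dkk antagonists, Dkk2 and Dkk3, passed the test. Dkk3, the most abundant Dkk gene and the least tied to Wnt signalling, measured 104, 86.8 and 91.5 CPM in the WT and 61.2, 179 and 95.4 CPM in the KO lesions. The KO lesions lay on both sides of the WT lesions (change 0.25, standard error 0.39, unadjusted p = 0.544). The change turned to -0.26 without KO replicate 2, the highest lesion. Dkk2, an antagonist at Lrp5 and Lrp6, measured 57.8, 38.7 and 90.0 CPM in the WT and 59.2, 45.9 and 79.4 CPM in the KO lesions. The groups lay over one another (change -0.02, standard error 0.35, unadjusted p = 0.967). Dkk1 and Dkk4 had 2 counts each over all libraries and were not tested. The summed Dkk level was 46.6, 36.3 and 51.5 CPM per kb in the WT and 34.2, 65.7 and 49.8 CPM per kb in the KO lesions. Whether Sfrp and Dkk genes changed differently was not tested.

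No R-spondin gene passed the test, and neither did Lgr5. Rspo1 measured 23.9, 18.8 and 8.95 CPM in the WT and 7.75, 22.7 and 17.4 CPM in the KO lesions. Low values occurred in both groups, in WT replicate 3 and KO replicate 1 (change -0.11, standard error 0.50, unadjusted p = 0.836). Of 6 mesothelium markers, Msln, Upk3b, Lrrn4 and Upk1b were lowest in the same 2 lesions, Msln at 8.46 and 4.10 CPM against 38.9 to 69.4 CPM in the others, but Wt1 and Krt7 were not. The sum of the 6, most of it Krt7, was 720, 1010 and 825 CPM in the WT and 646, 720 and 561 CPM in the KO lesions and so did not follow Rspo1, and the part of mesothelium in the Rspo1 values was not tested. Rspo3 measured 7.73, 3.06 and 5.83 CPM in the WT and 10.1, 7.07 and 5.25 CPM in the KO lesions. The groups overlapped (change 0.43, standard error 0.41, unadjusted p = 0.339). An antisense gene covers 13.1% of the exon bases of Rspo3. Rspo2 lay at 2.00 CPM or less with a change of 1.27 (unadjusted p = 0.201), and Rspo4 at 0.256 CPM or less was not tested.

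Lgr5, an R-spondin receptor and a known marker of epithelial stem cells, measured 1.41, 1.35 and 1.07 CPM in the WT and 0.456, 4.29 and 0.125 CPM in the KO lesions. The WT lesions were alike, while KO replicate 2 was the highest of all and KO replicates 1 and 3 were the lowest. The change was 0.35 with a standard error of 1.15 (unadjusted p = 0.774). Without KO replicate 2 it was -2.11 and past the threshold (0.0224), so 1 lesion set its sign.

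Axin2 and Lef1 serve as readouts of beta-catenin signalling in many tissues. Axin2, a target gene and negative feedback regulator, measured 23.2, 14.0 and 19.3 CPM in the WT and 21.7, 18.2 and 26.0 CPM in the KO lesions. The groups overlapped over most of their range (change 0.22, standard error 0.24, unadjusted p = 0.388). With each lesion left out the change of Axin2 stayed between 0.05 and 0.40. Lef1, a DNA-binding partner of beta-catenin that is also abundant in T cells, measured 1.11, 2.16 and 0.641 CPM in the WT and 0.246, 0.437 and 0.458 CPM in the KO lesions. All KO lesions lay below all WT lesions, at a low level. The change was -1.77 with a standard error of 0.55 (unadjusted p = 0.0182), -1.20 without WT replicate 2 (0.0544) and -1.54 without KO replicate 1 (0.0649). Of 6 T cell markers, 5 were lower in KO lesions and the sixth, Cd3g, had an unadjusted p of 0.0529. They summed to 28.1, 80.3 and 30.1 CPM in the WT and 7.35, 5.01 and 22.1 CPM in the KO lesions, with WT replicate 2 highest as for Lef1. An antisense gene covers 13.7% of the exon bases of Lef1. The part of T cells in the Lef1 values was not tested.

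**Figure D5:**
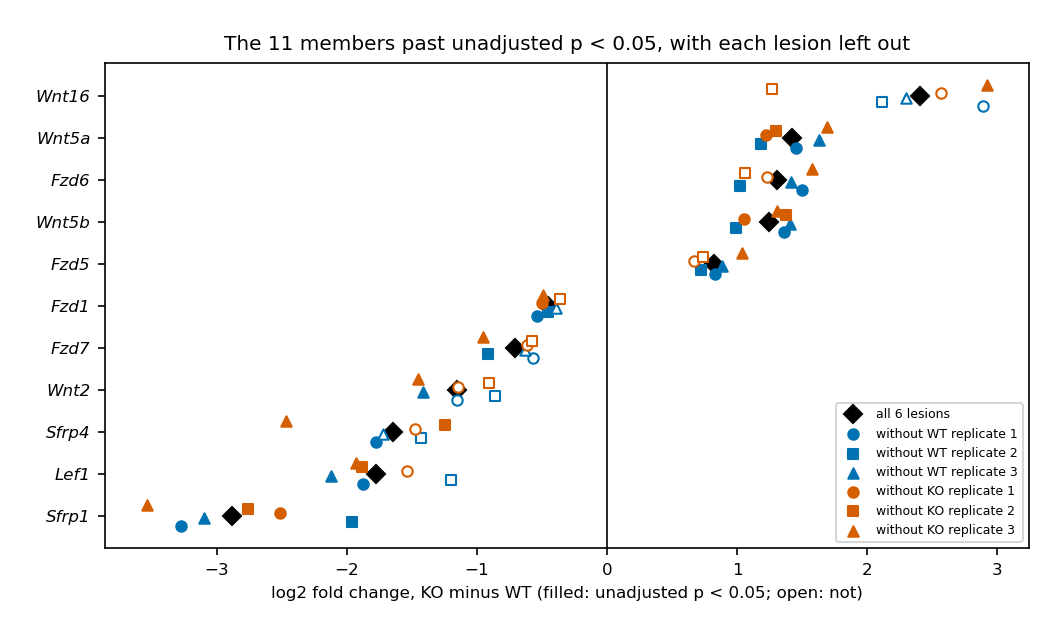
Change on the log2 scale of the 11 members that were higher or lower, with all 6 lesions (black) and after leaving out each lesion in turn (blue for a WT lesion, orange for a KO lesion), filled where the unadjusted p stayed under 0.05 and open where it did not. No change crosses 0, and Sfrp1, Wnt5a and Wnt5b are filled with every lesion left out.

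Around these members, 57 other genes of the pathway were read from a list that runs from ligand secretion to the nucleus. Of the 53 tested, 5 were lower and 3 higher, which is 15.1% beside the 14.7% of all tested genes, with a median change of -0.04. With each lesion left out, 4 to 7 were lower, and the number higher was 0 without WT replicate 1, 5 without KO replicate 3 and 1 without any single one of the other 4 lesions. The genes lower in KO lesions were the secreted antagonist Sostdc1 (-2.47), the cytoplasmic transducer Dvl1 (-0.73), the kinase Csnk1e (-0.42), the co-repressor Tle4 (-0.72) and the response gene Nkd2 (-1.22). Those higher were the R-spondin receptor Lgr4 (1.29), Dkkl1 (1.96) and the response gene Ascl2 (1.36), the last at 0.500 CPM or less in every lesion. Lgr4 measured 48.6, 23.5 and 59.4 CPM in the WT and 122, 145 and 53.9 CPM in the KO lesions. It thus followed the pattern of Wnt16, with KO replicates 1 and 2 high and KO replicate 3 among the WT lesions. Dvl1 and Csnk1e were the 2 of 12 cytoplasmic genes that passed the test. Among the other 10, Ctnnb1, which encodes beta-catenin, had a change of 0.39 (unadjusted p = 0.161), Apc of -0.08 (0.505), Axin1 of -0.12 (0.342) and Gsk3b of 0.21 (0.227). The co-receptors Lrp5 (0.17, unadjusted p = 0.194) and Lrp6 (-0.04, 0.866) and the Wnt5a receptors Ror2 (-0.01, 0.982) and Ryk (0.16, 0.327) did not pass the test either. Wls and Porcn, which every Wnt ligand needs for its release, had small positive changes of 0.21 and 0.47 without overlap between the groups and without passing the test (unadjusted p of 0.177 and 0.0687). Of the 10 tested response genes on the list, all but Ascl2 had negative changes, and Nkd2 alone of these passed the test.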

How the data were processed

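Stranded, poly(A)-selected libraries were sequenced from 3 WT and 3 KO lesions, 1 per lesion, and groups were taken from the genotype in the labels. The authors deposited unnormalized counts of reads for 56884 genes. The submitters' processing notes name Trimmomatic, featureCounts, DESeq2 and GRCm39, the study's methods name GRCm38, and the aligner and the strand setting are not given in the sources used here. Since these builds differ, no coordinates were set against the counts, and the start regions and exon annotation below are of GRCm38. Most low counts were even, as when both mates of a pair are counted.

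From the counts, genes were kept by filterByExpr (18177), scaled by TMM and fitted with edgeR 4.0.16 in R 4.3.3 (glmQLFit and glmQLFTest, genotype as the only term, common biological coefficient of variation 44.2%), with Benjamini-Hochberg adjustment over all tested genes. Each standard error is the log2 fold change over the square root of F. Exon lengths and antisense overlaps came from GENCODE M21, where 51948 gene IDs matched without their version and 35 with it, and promoter windows from RefSeq. Printed upstream bases stop where a GENCODE M21 transcript of the gene begins. The replicates are separate lesions, and depth was 45370342 to 57239184 counts, without molecular identifiers. The fits with edgeR, DESeq2 and limma voom were tested on simulated counts with planted changes, and the other steps were not.

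The members, the pathway list and the marker lists were chosen with earlier results of these data known. Named with the value in every lesion were members past an unadjusted p of 0.05, members without overlap and at least 1 CPM, the 2 most abundant per role, and Axin2, Lef1, Lgr5, Wnt4, Wnt5a and Wnt7a. Fzd4, Fzd9, Lgr4, Msln and marker genes named singly were chosen after their values were seen. Alternatives were DESeq2's size factors, upper quartile scaling, a filter of 1 count in all or of 10 counts per library, DESeq2 1.42.0, limma 3.58.1 (voom with quality weights), a replicate block and each lesion left out. Leaving out WT replicate 2 and KO replicate 3 together, and counts divided by 2, were chosen after seeing the data.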

Additional observations from a re-analysis of the deposited data

How the results depend on the processing

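All 11 members that were higher or lower kept their direction under the 13 alternatives fixed with the design and the 2 added. The counts of lower and higher members, 6 and 5, were 10 and 5 with DESeq2 (36.6% of tested members called, beside 12.5% of all genes) and 10 and 5 with limma voom (44.1% beside 30.1%), and ranged from 2 to 10 and from 2 to 5 with each lesion left out. The additional members were Fzd9, Sfrp2, Sfrp5 and Wnt10a with DESeq2, and Fzd4, Sfrp2, Sfrp5 and Wnt7a with voom. At an adjusted p under 0.05, DESeq2 called 4 members, and 8 were called with WT replicate 2 and KO replicate 3 both left out (22.9% of tested members, beside 10.6% of all genes). The median change of the members ranged from -0.29 to 0.15 with each lesion left out. Of the other pathway genes, 5 were lower and 3 higher. These counts were 8 lower with DESeq2, 9 and 5 with voom and 12 and 5 with those 2 lesions left out, and ranged from 4 to 7 and from 0 to 5 with each lesion left out. Counts divided by 2 gave 6 lower and 6 higher members, the addition being Fzd2.

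The sign of Dkk2 (-0.02) turned with upper quartile scaling (0.078), with the replicate block (0.034) and with some lesions left out (-0.26 to 0.33). Leaving out lesions also turned Dkk3 (-0.26 to 0.54), Rspo1 (-0.45 to 0.22), Lgr5 (-2.11 to 0.89), Fzd4 (-1.13 to 0.16), Wnt2b (-0.55 to 1.82), Wnt6 (-0.84 to 1.89), Wnt9a (-0.58 to 0.11) and Wnt9b (-0.79 to 0.57). Lgr5 was -0.34 with voom and -1.01 with the block, and Axin2 was -0.10 with the 2 lesions left out. The cause was not tested.

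Lesions of the same number did not clearly deviate together from their group means (correlations of 0.03, -0.15 and -0.20), and the main fit was not paired. Whether such lesions shared a batch was not tested. With a replicate block, 5 members were lower and 3 higher, 6 of the 11 were called again (23.5% of tested members called, beside 7.70% of all genes), and no other pathway gene was higher. The additional members with the block were Fzd2 and Wnt7a. Precision is limited by the 3 lesions per group and, for members near 0 counts, also by depth. The effect of depth on the other members was not tested.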
